A study of Homo sapiens with 6 samples.

Results

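The genes described here encode 42 proteins of the lysosome: 6 proteins of its limiting membrane, 8 proteases, 11 glycosidases, 4 sulfatases, 6 proteins of lipid degradation and 7 subunits or accessory proteins of the V-ATPase, the proton pump that acidifies the organelle. They were taken by gene symbol from a fixed list, and each of the 42 symbols had a row in the count table of 36887 genes. All 42 passed the filter on low counts, as did 21036 genes in total. RNA-seq was performed on 5637 cells, an established human bladder carcinoma line that the labels give as wild type. The 3 siNC samples (transfected with a negative control siRNA) were compared with 3 siYKT6 samples (transfected with siRNA against YKT6), both collected 48 h after transfection, so every sample had been through a transfection. The comparison asks which transcripts change when YKT6 is silenced. The labels do not say whether the 3 samples of a group were separate cultures, so the p-values measure the spread between these samples, which may be technical. They also do not say whether 1 siRNA or several against YKT6 were used.

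Lysosomes break down proteins, glycans, sulfated sugars and lipids with acid hydrolases. Most soluble hydrolases are tagged with mannose 6-phosphate in the Golgi, carried to endosomes by mannose 6-phosphate receptors or sortilin, and matured at the low pH that the V-ATPase maintains. YKT6 is a SNARE, a membrane fusion protein, that acts in transport between the endoplasmic reticulum, Golgi and endosomes and in the fusion of autophagosomes with lysosomes. Many lysosomal genes are transcribed under TFEB, TFE3 and MITF, factors that the kinase complex mTORC1 holds in the cytosol when nutrients are plentiful.

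The targeted transcript was measured first. YKT6 (chr7:44200968-44214294, plus strand, GRCh38) stood at 64.5, 65.3 and 68.2 CPM in siNC and at 17.7, 19.4 and 17.3 CPM in siYKT6, where CPM is the gene's count per 1000000 counts of the library after TMM scaling. All siYKT6 samples were far below the siNC samples, and 27.5% of the control level was left (log2 fold change -1.86, SE 0.0477, n = 3 per group, edgeR quasi-likelihood adjusted p = 5.31e-17). An exact two-sided permutation test of the same values gave p = 0.1, the smallest that 3 samples against 3 allow. Libraries held 45205238 to 64982015 counts in siNC and 57546297 to 64429709 in siYKT6. Epithelial character was checked with 8 epithelial and urothelial markers, and the identity of the line itself was not checked. The summed level of these markers was 4478 to 4611 CPM in siNC and 3352 to 3543 CPM in siYKT6, with KRT5, TP63, KRT19, KRT8 and CDH1 lower and EPCAM higher. Of 7 macrophage and leukocyte markers, 6 were below 1 CPM in every sample and their summed level was 5.17 to 5.90 CPM in siNC and 4.04 to 5.02 CPM in siYKT6, almost all of it from CD68, itself a lysosomal membrane protein. Endothelial markers (5 genes) summed to 0.941 to 1.41 against 1.59 to 1.66 CPM, and fibroblast markers (6 genes, mostly COL1A1) to 30.1 to 31.0 against 33.8 to 36.1 CPM. The part of these shifts in the lysosomal values was not tested. In bulk RNA, fewer cells of a kind and less RNA per cell cannot be told apart.

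The lysosomal genes differed between siYKT6 and siNC in both directions and by small amounts. At an adjusted p under 0.05, 11 of the 42 genes rose, 7 fell and the other 24 were not called. The 11 that rose were the sialidase NEU1, the thioesterase PPT1, CTSA, CTSD, TPP1, IDS, GUSB, ATP6V1H, NPC2, PSAP and ASAH1. The 7 that fell were the cathepsins CTSC, CTSB, CTSL and CTSH, the V-ATPase subunit ATP6V1B2, the fucosidase FUCA1 and the membrane glycoprotein LAMP2. Log2 fold changes ran from -0.42 for CTSC to 0.52 for NEU1, and NEU1 was the single member whose change exceeded 0.5 in size. Without siNC sample 2, 11 genes were higher and 4 rather than 7 lower.

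These counts were read against all genes tested in the same fit. Over the 21036 genes, 30.8% were called in either direction, 14.6% higher and 16.3% lower, while the lysosomal genes gave 26.2% higher and 16.7% lower. The lysosomal genes are well expressed, so a further background was taken after their values had been seen: among 15145 genes at or above the lowest member's mean CPM in siNC, 18.8% were higher and 21.5% lower. The share of lower calls was near that of all genes and under that of the expressed genes, and the share of higher calls above both. A few genes move a share of 42, and these differences were not tested. The expressed background sets only a lowest level and does not match the levels of the 42 genes. In CPM, all 3 siYKT6 samples lay above all 3 siNC samples for 16 lysosomal genes and below them for 9, with overlap in the other 17, against 20.3% of all genes above and 21.5% below. The median log2 fold change was 0.04 for the 42 genes and 0.00 for all genes, and 23 of the 42 values were above 0.

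**Figure D1:**
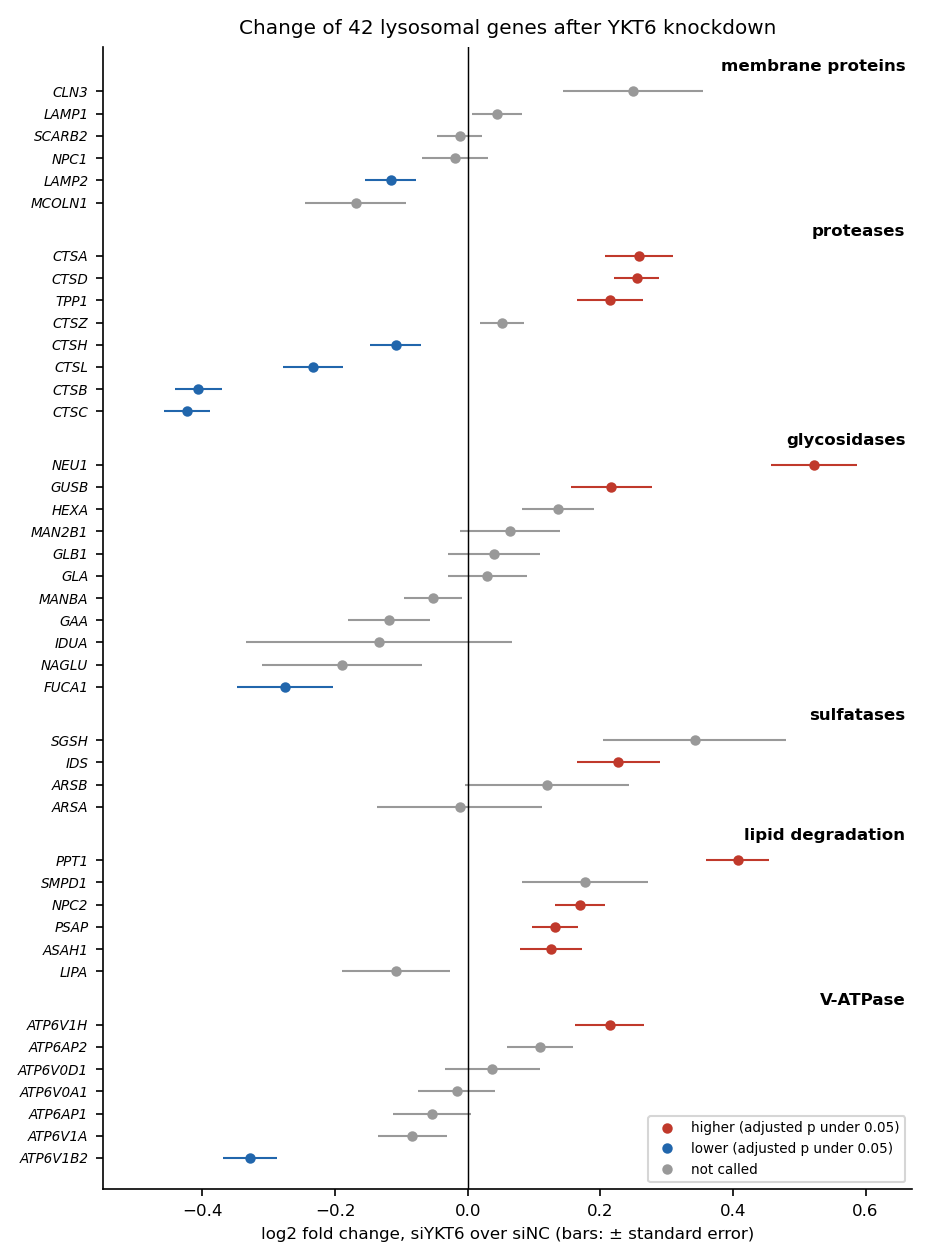
Log2 fold change of each of the 42 lysosomal genes, siYKT6 over siNC, with bars of ± 1 standard error from the edgeR fit (n = 3 per group), ordered by size within 6 role groups. Red points are the 11 genes called higher, blue points the 7 called lower and grey points the 24 not called. Red and blue points stand side by side among the proteases, while the lipid group holds no blue point.

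The summed transcript level of the 42 genes did not separate the groups. It was 1590, 1615 and 1621 CPM in siNC and 1606, 1602 and 1617 CPM in siYKT6, or 1609 ± 16.4 against 1608 ± 7.77 CPM (SD, n = 3), and the samples overlapped. Within this sum, the 8 proteases went from 604.4 ± 7.86 to 566.6 ± 7.40 CPM, 93.8% of the control level, with the 3 siYKT6 libraries all under the 3 controls. The 6 genes of lipid degradation went from 337.8 ± 6.24 to 377.4 ± 3.75 CPM (111.7%) and the 4 sulfatases from 21.3 ± 0.630 to 24.4 ± 1.09 CPM (114.3%), with the siYKT6 libraries all over the controls in both. Membrane proteins (282.4 to 277.8 CPM), glycosidases (187.2 to 191.7 CPM) and V-ATPase genes (175.5 to 170.6 CPM) overlapped between the groups. These sums are descriptions of single libraries and were given no test. Each sum weights genes by their level. The gene with the highest level was IDS among the sulfatases (13.3 to 15.5 CPM) and PSAP in the lipid group (199.3 to 218.3 CPM).

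**Figure D2:**
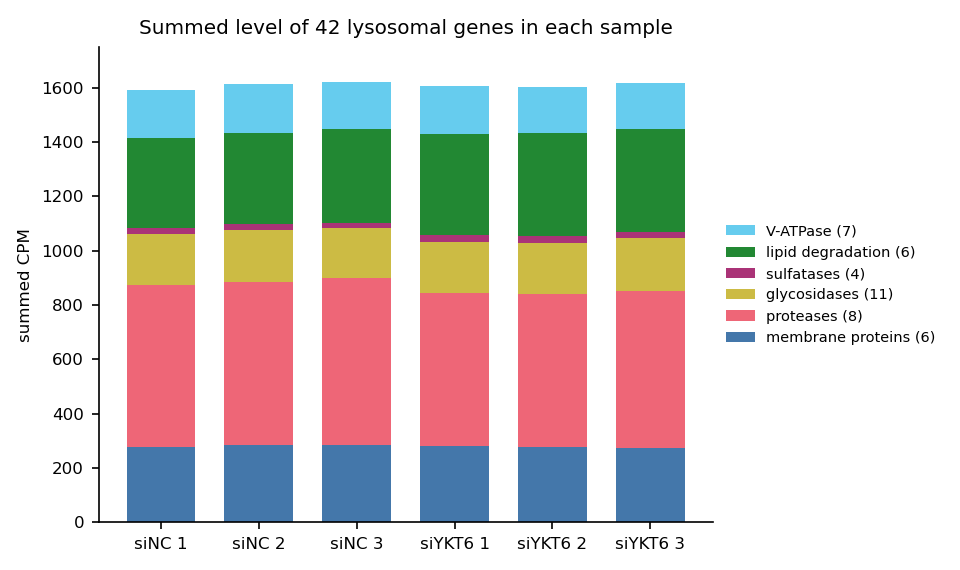
Summed CPM of the 42 genes in each of the 6 samples, stacked by role group (number of genes in brackets). The full bars stay between 1590 and 1621 CPM, while the protease segment is shorter and the lipid degradation segment taller in the 3 siYKT6 bars.

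The proteases carried the most calls, and in both directions: 3 of 8 rose, 4 fell and CTSZ did not pass the test. Over all genes 14.6% rose and 16.3% fell. CTSC (chr11:88293592-88337787, minus strand), cathepsin C or dipeptidyl peptidase 1, trims dipeptides from proteins and activates granule serine proteases. Its level was 111.8, 109.8 and 111.1 CPM in siNC and 83.1, 82.0 and 83.0 CPM in siYKT6, and it fell to 74.6% (log2 fold change -0.42, SE 0.0340, adjusted p = 3.63e-09). The SD was 1.02 CPM in siNC and 0.607 CPM in siYKT6, far less than the gap between the groups. CTSB, a cysteine endopeptidase with carboxydipeptidase activity, was at 92.6, 93.9 and 95.8 CPM in siNC and 70.1, 70.9 and 72.1 CPM in siYKT6. It fell to 75.5% of the control level (-0.41, SE 0.0355, adjusted p = 1.3e-08), again with no overlap. The endopeptidase CTSL was at 62.3, 61.1 and 63.4 CPM against 54.6, 48.9 and 55.6 CPM (-0.23, SE 0.0452, adjusted p = 0.000367). Its siYKT6 sample 2 was the lowest of the 6, and the other siYKT6 samples also lay below all controls. The aminopeptidase CTSH was at 74.0, 76.7 and 79.7 CPM against 69.6, 72.0 and 72.3 CPM (-0.11, SE 0.0384, adjusted p = 0.0359). The highest siYKT6 value of CTSH was below the lowest siNC value, but the call was lost when any of siNC sample 2, siNC sample 3, siYKT6 sample 1 or siYKT6 sample 2 was left out (log2 fold change -0.11 to -0.08).

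The proteases that rose belong to other catalytic classes. CTSD (chr11:1752752-1764573, minus strand), the main lysosomal aspartic protease, was at 82.4, 84.1 and 83.2 CPM in siNC and 98.3, 99.0 and 100.8 CPM in siYKT6. It rose to 119.3% (0.25, SE 0.0345, adjusted p = 5.92e-06), and the groups were well apart. CTSA, a serine carboxypeptidase that also protects NEU1 and beta-galactosidase in a complex, was at 17, 17.3 and 17.2 CPM against 20.1, 21.0 and 20.4 CPM (0.26, SE 0.0515, adjusted p = 0.000498). TPP1, a serine tripeptidyl peptidase whose loss causes a childhood neuronal ceroid lipofuscinosis, was at 23.5, 23.2 and 23.7 CPM against 27.4, 25.6 and 28.7 CPM (0.21, SE 0.0502, adjusted p = 0.00218). For both genes all siYKT6 samples were above all siNC samples. CTSZ, a cysteine carboxypeptidase, was at 136.4 ± 2.40 CPM in siNC and 141.5 ± 1.32 CPM in siYKT6 (SD, n = 3) without passing the test (0.05, adjusted p = 0.263), although the samples did not overlap.

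The split by catalytic class was noticed in these values, so it is a description. Of the 5 papain-family cysteine cathepsins among the 42 genes, 4 fell and none rose, while the 3 proteases of other classes all rose. Beside this, 14.6% of all genes rose and 16.3% fell. The call of CTSH was lost in 6 of 14 alternatives. CTSD shares 41.7% of its exonic length with another gene that also rose. Outside the 42 genes the serine proteases did not follow the split. SCPEP1 fell, mostly in siYKT6 sample 3 (-0.24, adjusted p = 0.0197). PRCP (-0.06, adjusted p = 0.599) and DPP7 (0.04, adjusted p = 0.767) did not pass the test. Among all 10 papain-family cathepsins that could be tested, 5 fell, 1 rose and 4 did not pass. The further one that fell was CTSO, at 4.70, 6.88 and 6.09 CPM in siNC against 2.20, 2.78 and 3.5 CPM in siYKT6 (-1.07, SE 0.146, adjusted p = 6.08e-06). The one that rose was CTSV, a close paralog of CTSL, from 44.1 ± 1.26 to 53.5 ± 1.75 CPM (0.28, SE 0.0412, adjusted p = 1.58e-05). CTSL thus fell and CTSV rose in the same libraries, and reads that both transcripts or the 6 annotated CTSL pseudogenes could share make the split between them uncertain.

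**Figure D3:**
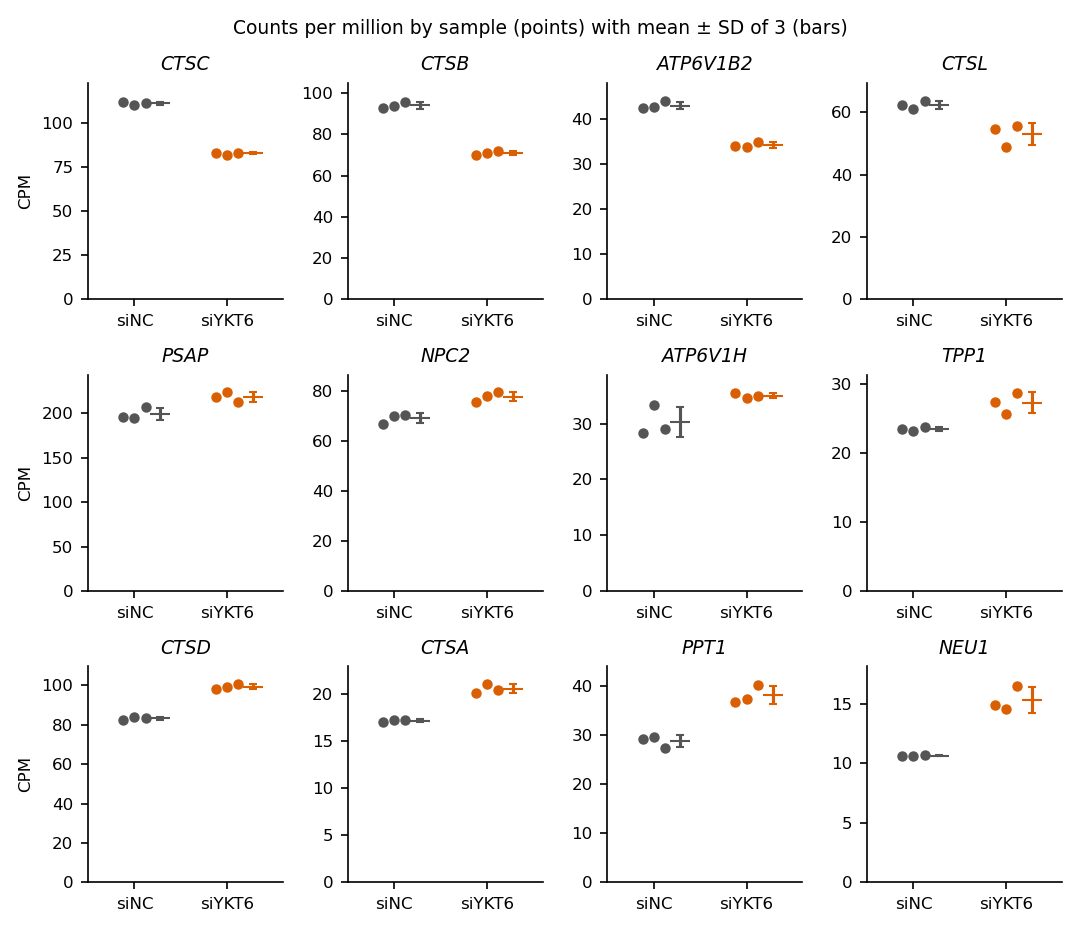
CPM of the 12 genes called under every one of 14 alternative processings, one panel per gene, with each of 3 siNC and 3 siYKT6 samples as a point and mean ± SD beside them, on axes that start at 0. CTSC, CTSB, ATP6V1B2 and CTSL are lower in all siYKT6 samples, and the other 8 genes are higher in all of them.

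The genes of lipid degradation moved mostly upward: 4 of 6 rose and none fell, beside 14.6% higher and 16.3% lower of all genes. PPT1 (chr1:40072705-40097703, minus strand), the thioesterase that removes palmitate from proteins and is mutated in infantile neuronal ceroid lipofuscinosis, was at 29.3, 29.7 and 27.4 CPM in siNC and 36.8, 37.4 and 40.2 CPM in siYKT6. It rose to 132.5% of the control level (0.41, SE 0.0478, adjusted p = 9.04e-07), the largest rise in this group. NPC2, the soluble protein that hands cholesterol to NPC1, was at 66.9, 70.3 and 70.4 CPM against 75.8, 78.1 and 79.5 CPM (0.17, SE 0.0378, adjusted p = 0.00149). PSAP encodes prosaposin, the precursor of the saposins that present sphingolipids to their hydrolases. Its level was 195.9, 195.0 and 206.9 CPM against 218.7, 223.9 and 212.3 CPM (0.13, SE 0.0346, adjusted p = 0.00568). ASAH1, the acid ceramidase, was at 28.2, 27.4 and 28.4 CPM against 30.1, 29.5 and 32.1 CPM (0.13, SE 0.0467, adjusted p = 0.0463). In each of these genes the siYKT6 samples lay above the siNC samples, by the narrowest margin in PSAP and ASAH1. ASAH1 was the least firm call, with an adjusted p of 0.0686 in DESeq2 and 0.0562 in limma-voom, and it was lost on leaving out any 1 sample except siYKT6 sample 2 (0.09 to 0.14). The acid sphingomyelinase SMPD1 (4.88 ± 0.158 to 5.50 ± 0.477 CPM, adjusted p = 0.177) and the acid lipase LIPA (7.66 ± 0.571 to 7.08 ± 0.306 CPM, adjusted p = 0.357) did not pass the test.

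Of the 11 glycosidases, 2 rose, 1 fell and 8 were not called, beside 30.8% of all genes called in either direction. NEU1 (chr6:31857659-31862906, minus strand), the lysosomal sialidase that removes terminal sialic acid, was at 10.6, 10.6 and 10.7 CPM in siNC and 14.9, 14.5 and 16.5 CPM in siYKT6. It rose to 143.8% of the control level (0.52, SE 0.0650, adjusted p = 1.92e-06), with controls that hardly differed from each other. NEU1 and its partner CTSA rose together, whereas GLB1, the beta-galactosidase of the same complex, was at 11.9 ± 0.535 CPM in siNC and 12.2 ± 0.938 CPM in siYKT6 (0.04, adjusted p = 0.725). GUSB, the beta-glucuronidase, was at 16.8, 16.8 and 19.5 CPM against 19.7, 21.4 and 20.9 CPM (0.22, SE 0.0615, adjusted p = 0.0097). The groups of GUSB nearly met, since siNC sample 3 came close to siYKT6 sample 1, and without siNC sample 1, siNC sample 2 or siYKT6 sample 2 the adjusted p was 0.0523 to 0.0537. FUCA1, the alpha-L-fucosidase, was at 14.6, 17.1 and 14.1 CPM against 12.8, 11.7 and 13.2 CPM (-0.28, SE 0.0723, adjusted p = 0.0055). The control spread of FUCA1 came from siNC sample 2, without which the log2 fold change was -0.19 and the adjusted p 0.0542.

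The other 8 glycosidases had log2 fold changes of -0.19 to 0.14. HEXA, which acts in ganglioside breakdown, was at 24.4 ± 1.80 CPM in siNC and 26.8 ± 0.951 CPM in siYKT6 (0.14, adjusted p = 0.0635) and passed the threshold in 6 of 14 alternatives, among them without siNC sample 2 (0.19, adjusted p = 0.0141) and without siYKT6 sample 3 (0.16, adjusted p = 0.0401). GAA, the acid alpha-glucosidase of glycogen breakdown (-0.12, adjusted p = 0.161), the alpha-galactosidase GLA (0.03, adjusted p = 0.764), the mannosidases MAN2B1 (0.06, adjusted p = 0.584) and MANBA (-0.05, adjusted p = 0.416), NAGLU of heparan sulfate breakdown (-0.19, adjusted p = 0.265) and the iduronidase IDUA (-0.13, adjusted p = 0.675) did not pass either. IDUA was the member with the fewest counts (1.29 ± 0.208 CPM in siNC), and its SE was 0.201 on the log2 scale.

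Of the 4 sulfatases, 1 rose and none fell, beside 14.6% higher and 16.3% lower of all genes. IDS, the iduronate sulfatase lost in Hunter syndrome, was at 13.6, 13.6 and 12.7 CPM in siNC and 15.3, 16.6 and 14.7 CPM in siYKT6 (0.23, SE 0.0632, adjusted p = 0.00844). Its siYKT6 samples were all higher, but without siNC sample 3 or siYKT6 sample 2 the adjusted p was 0.0593 or 0.0665. SGSH, the heparan N-sulfatase, was at 1.90, 1.76 and 2.09 CPM against 2.38, 2.43 and 2.51 CPM (0.34, SE 0.138, adjusted p = 0.0654). No sample of SGSH overlapped between groups, yet the test was not passed at this low level. The arylsulfatases ARSB (0.12, adjusted p = 0.519) and ARSA (-0.01, adjusted p = 0.958) overlapped.

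Of the 6 membrane proteins, 1 fell (16.7%, near the 16.3% of all genes) and none rose, beside 14.6% of all genes. LAMP2, a heavily glycosylated protein of the lysosomal membrane with an isoform that serves chaperone-mediated autophagy, was at 68.1, 70.2 and 70.5 CPM in siNC and 65.6, 65.0 and 62.0 CPM in siYKT6. It fell to 92.3% (-0.12, SE 0.0380, adjusted p = 0.0236), with siYKT6 sample 3 lowest. Without siNC sample 2, siNC sample 3 or siYKT6 sample 3 the call was lost (adjusted p 0.0629 to 0.0878). LAMP1, the related membrane glycoprotein commonly used as a lysosome marker, was at 66.1, 67.5 and 68.7 CPM against 68.7, 68.6 and 71.4 CPM (0.04, SE 0.0372, adjusted p = 0.418). The samples of LAMP1 overlapped. The cholesterol exporter NPC1 (21.0 ± 0.390 to 20.7 ± 0.522 CPM, adjusted p = 0.824) and SCARB2, the receptor that carries glucocerebrosidase to lysosomes (111.2 ± 1.82 to 110.2 ± 1.78 CPM, adjusted p = 0.836), overlapped as well. NPC1 did not pass the test while its partner NPC2 rose, a difference that was not itself tested. The calcium channel MCOLN1 was at 8.50, 9.03 and 9.99 CPM against 8.31, 7.99 and 8.28 CPM (-0.17, adjusted p = 0.103) and CLN3, mutated in juvenile ceroid lipofuscinosis, at 3.64, 4.68 and 3.88 CPM against 4.85, 4.83 and 4.81 CPM (0.25, adjusted p = 0.0806). Neither passed, although no sample of either overlapped between groups, and CLN3 passed when siNC sample 2, its highest control, was left out (0.36, adjusted p = 0.0202).

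V-ATPase genes gave 1 higher and 1 lower call of 7, both in the cytosolic V1 sector that hydrolyses ATP. These shares (14.3% each) were near the 14.6% higher and 16.3% lower of all genes. ATP6V1B2, the B subunit that forms the catalytic head with subunit A, was at 42.4, 42.6 and 44 CPM in siNC and 34.1, 33.8 and 34.9 CPM in siYKT6. It fell to 79.7% of the control level (-0.33, SE 0.0411, adjusted p = 2.13e-06), with a wide gap between the groups. The A subunit ATP6V1A was at 31.1, 31.7 and 28.8 CPM against 30.6, 27.4 and 28.1 CPM (-0.08, SE 0.0515, adjusted p = 0.247). Samples of ATP6V1A overlapped. ATP6V1H, the H subunit that regulates the coupling of V1 to the membrane sector, was at 28.4, 33.3 and 29.0 CPM against 35.5, 34.6 and 35.0 CPM (0.21, SE 0.0525, adjusted p = 0.00327). Its siNC sample 2 stood above the other controls but below all siYKT6 samples. The membrane subunits ATP6V0A1 (-0.02, adjusted p = 0.867) and ATP6V0D1 (0.04, adjusted p = 0.755) and the accessory proteins ATP6AP1 (-0.05, adjusted p = 0.542) and ATP6AP2, also known as the prorenin receptor (0.11, adjusted p = 0.109), did not pass the test.

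The remaining pump genes were taken from a list of all subunits, of which 14 further genes could be tested: 5 rose, 5 fell and 4 did not pass. Over all genes 14.6% rose and 16.3% fell. ATP6V0E1, a small membrane subunit, was at 15.1, 13.3 and 13.0 CPM in siNC and 6.41, 6.65 and 7.6 CPM in siYKT6, a fall to 49.9% (-1.0, SE 0.0798, adjusted p = 3.27e-09). It was the largest change of any V-ATPase gene tested. The C2 and E2 isoforms of the stalk, ATP6V1C2 (26.5 ± 0.211 to 20.7 ± 0.920 CPM, -0.36, adjusted p = 6.96e-06) and ATP6V1E2 (6.14 ± 0.769 to 4.93 ± 0.294 CPM, -0.32, adjusted p = 0.0166), fell as well. Their broadly expressed counterparts ATP6V1C1 (48.8 ± 0.540 to 55.7 ± 0.693 CPM, 0.19, adjusted p = 0.000499) and ATP6V1E1 (169.4 ± 3.16 to 183.6 ± 2.68 CPM, 0.12, adjusted p = 0.00918) rose, as did the rotor subunit ATP6V1D (87.9 ± 1.6 to 100.2 ± 1.55 CPM, 0.19, adjusted p = 0.000249). Over all 21 V-ATPase genes tested, 6 rose, 6 fell and 9 did not pass, with 5 higher and 3 lower of 11 in the V1 sector and 1 higher and 3 lower of 8 in the V0 sector. The difference between sectors was not tested.

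Levels of different genes were compared per length, as CPM per kilobase of exonic length. That length merges all annotated exons of a gene, so the order also depends on how much is annotated for each gene. In siNC the highest were CTSZ (66.9 CPM per kb) and PSAP (61.5 CPM per kb), which were well apart from CTSD (26.6 CPM per kb), CTSL (26.3 CPM per kb) and NPC2 (25.2 CPM per kb). CTSD and CTSL did not differ beyond the spread of their samples. SCARB2, the membrane protein with the most transcript per length, stood at 19.6 CPM per kb, followed by CTSH, CTSB, LAMP2 and LAMP1 between 13.0 and 11.8 CPM per kb. SGSH (0.285 CPM per kb), IDUA (0.322 CPM per kb) and CLN3 (0.413 CPM per kb) were lowest. In 24 of 41 pairs of neighbours in this order the sample ranges overlapped. The order was much the same in siYKT6: 12 genes kept their rank and none moved by more than 4 places.

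**Figure D4:**
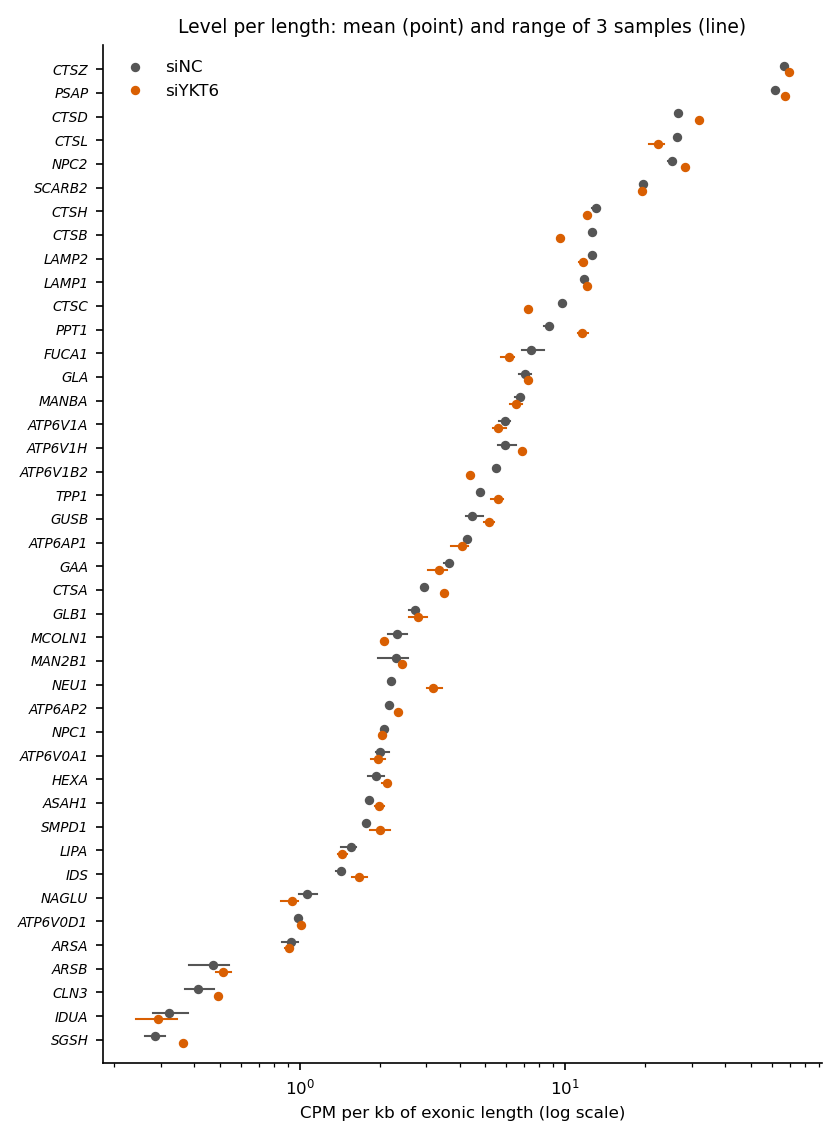
Level of each of the 42 genes as CPM per kb of exonic length on a log axis, with siNC in grey and siYKT6 in orange, points for the mean and lines for the range of 3 samples. Genes run from CTSZ at 66.9 to SGSH at 0.285 CPM per kb in siNC, and within a gene the points of the groups lie close together.

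Promoter sequences were examined for the E-box of the CLEAR element, to which TFEB and TFE3 bind. RefSeq promoter windows (GRCh38.p14, 250 bases before to 50 after the gene start) were at hand for 30 of the 42 genes and 27305 genes in total. The 27305 include genes outside the 21036 tested. Since many lysosomal genes are transcribed under these factors, a larger share of matches among them is no finding of these data. The shares below are descriptions and were not tested. The core CACGTG, which reads the same on both strands, was in 9 of the 30 windows (30.0%) and in 8.78% of all windows. The longer TCACGTGA, which contains the core, was in 6 (20%) against 1.18% of all, and the same letters preceded by G and followed by C were in 2 (GAA and MCOLN1, 6.67%) against 0.421% of all. A 28-base stretch around a match is printed for 8 of the 9 genes, to show the letters that the genes that rose and those not called have in common: the 3 that rose (CTSA, CTSD and NEU1) first and then the others with the longer form, 5′ to 3′ on the gene's strand with the matched letters in capitals. Where a window held several matches, a single one is shown, and the matches shown start between positions -126 (NEU1) and -2 (CLN3) relative to the gene start.
CTSA, chr20:45891299-45891326, plus strand, rose: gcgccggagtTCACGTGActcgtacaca
CTSD, chr11:1763958-1763985, minus strand, rose: ccggccgcgccCACGTGaccggtccggg
NEU1, chr6:31862931-31862958, minus strand, rose: tgctgcgtgatCACGTGggaggagatga
MCOLN1, chr19:7522599-7522626, plus strand, not called: ggctaccgggTCACGTGAccgaggcaca
GAA, chr17:80101494-80101521, plus strand, not called: ggaggccgcgTCACGTGAcccaccgcgg
LAMP1, chr13:113297200-113297227, plus strand, not called: acccgcgggaTCACGTGAcgcccgggcg
CLN3, chr16:28492059-28492086, minus strand, not called: gcgggtgctgTCACGTGAtccgacaaac
ATP6V0D1, chr16:67481200-67481227, minus strand, not called: ccccttatggTCACGTGAggcgcttgcg

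The ninth gene with the core was ARSB, which was not called. Of the 9 genes with CACGTG, 3 rose, none fell and 6 did not pass, with a median log2 fold change of 0.12. Of the 21 with a window and no match, 5 rose, 4 fell and 12 did not pass (median 0.03), and of the 12 without a window (LAMP2, CTSB, HEXA, MANBA, NAGLU, PSAP, SGSH, ASAH1, ARSA, ATP6V1A, ATP6V1B2 and ATP6V1H) 3 rose, 3 fell and 6 did not pass (median -0.03). For comparison, 14.6% of all genes tested rose and 16.3% fell. The shares among all genes with the motif were not taken, and differences between these small sets were not tested. Among the 6 genes with the longer form only CTSA was called. These matches are letters in a window and not measured binding.

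The factors themselves and their controllers were read from a list of 17 genes, 16 of them tested, of which 7 rose, 1 fell and 8 did not pass. Over all genes 14.6% rose and 16.3% fell. RRAGD, the Rag GTPase D that takes part in recruiting TFEB and TFE3 to the lysosome, was at 12.3, 12.9 and 13.2 CPM in siNC and 21.4, 20.8 and 20.6 CPM in siYKT6. It rose to 163.6% (0.71, SE 0.0553, adjusted p = 2.35e-09), more than any of the 42 genes, and the groups were far apart. FLCN, the folliculin that activates RagC and RagD (13.0 ± 0.0930 to 16.4 ± 0.5 CPM, 0.33, adjusted p = 0.000123), and its partner FNIP2 (12.2 ± 0.957 to 15.2 ± 0.456 CPM, 0.31, adjusted p = 0.0007) rose. RRAGC, the paralog of RRAGD, fell from 30.4 ± 0.515 to 26.2 ± 0.593 CPM (-0.22, adjusted p = 0.000741). TFE3 rose from 25.3 ± 1.41 to 29.3 ± 0.940 CPM (0.22, adjusted p = 0.00202) and MITF from 2.86 ± 0.559 to 4.06 ± 0.170 CPM (0.51, adjusted p = 0.00348), while TFEB gave a log2 fold change of -0.22 (adjusted p = 0.444). Transcript levels say nothing of where these proteins were in the cell.

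Genes of mannose 6-phosphate tagging and sorting gave 8 higher, 2 lower and 13 not called of 23, beside 14.6% higher and 16.3% lower of all genes. SORT1, sortilin, was at 87.3, 86.6 and 83.2 CPM in siNC and 111.1, 107.8 and 106.1 CPM in siYKT6 (0.34, SE 0.0361, adjusted p = 2.27e-07), with no overlap. The adaptors GGA2 (29.6 ± 1.30 to 35.1 ± 0.470 CPM, 0.25, adjusted p = 0.00019) and AP1G1 (73.9 ± 1.30 to 83.6 ± 3.59 CPM, 0.18, adjusted p = 0.00111) rose, and the adaptor subunit AP1S3 (4.42 ± 0.186 to 3.31 ± 0.378 CPM, -0.41, adjusted p = 0.00669) and the sorting receptor SORL1 (79.3 ± 3.29 to 72.5 ± 2.11 CPM, -0.13, adjusted p = 0.0163) fell. IGF2R, the large mannose 6-phosphate receptor, was at 387.1, 387.1 and 401.7 CPM against 439.6, 431.4 and 407.3 CPM and rose (0.12, adjusted p = 0.00888), with siYKT6 sample 3 closest to the controls.

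Among other lysosomal enzymes 4 rose, 7 fell and 23 of 34 did not pass. Besides CTSO, the sphingolipid activator GM2A fell (7.71 ± 0.714 to 6.32 ± 0.124 CPM, -0.29, adjusted p = 0.0105). The phospholipase PLA2G15 (2.37 ± 0.220 to 3.61 ± 0.296 CPM, 0.60, adjusted p = 0.000663) and the gamma-glutamyl hydrolase GGH (46.1 ± 0.449 to 52.1 ± 2.35 CPM, 0.17, adjusted p = 0.00268) rose with CTSV. Among other membrane proteins 10 rose, 6 fell and 19 of 35 did not pass. LAPTM5 (12.8 ± 0.586 to 8.10 ± 0.526 CPM, -0.66, adjusted p = 2.85e-07), the sialomucin CD164 (110.3 ± 1.31 to 93.2 ± 2.25 CPM, -0.24, adjusted p = 1.22e-05) and the transporter MFSD12 (59.4 ± 1.58 to 50.5 ± 1.37 CPM, -0.23, adjusted p = 8.59e-05) fell. The chloride-proton exchanger CLCN7 (8.28 ± 0.535 to 10.9 ± 0.476 CPM, 0.39, adjusted p = 0.000221) and its partner OSTM1 (13.3 ± 0.294 to 17.8 ± 1.29 CPM, 0.42, adjusted p = 2.11e-05) rose, as did the channel MCOLN3 (31.6 ± 1.54 to 38.8 ± 0.649 CPM, 0.30, adjusted p = 2.62e-05). Over the 122 tested genes of all 5 further lists, 34 rose (27.9%) and 21 fell (17.2%), shares close to those of the 42 genes, with a median log2 fold change of 0.04. The lists differed, beside 14.6% higher and 16.3% lower of all genes. Other enzymes gave 11.8% higher and 20.6% lower (median -0.02), other membrane proteins 28.6% and 17.1%, and other V-ATPase genes 35.7% each way. Sorting genes gave 34.8% and 8.7%, and the factors and their controllers 43.8% and 6.25%.

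**Figure D5:**
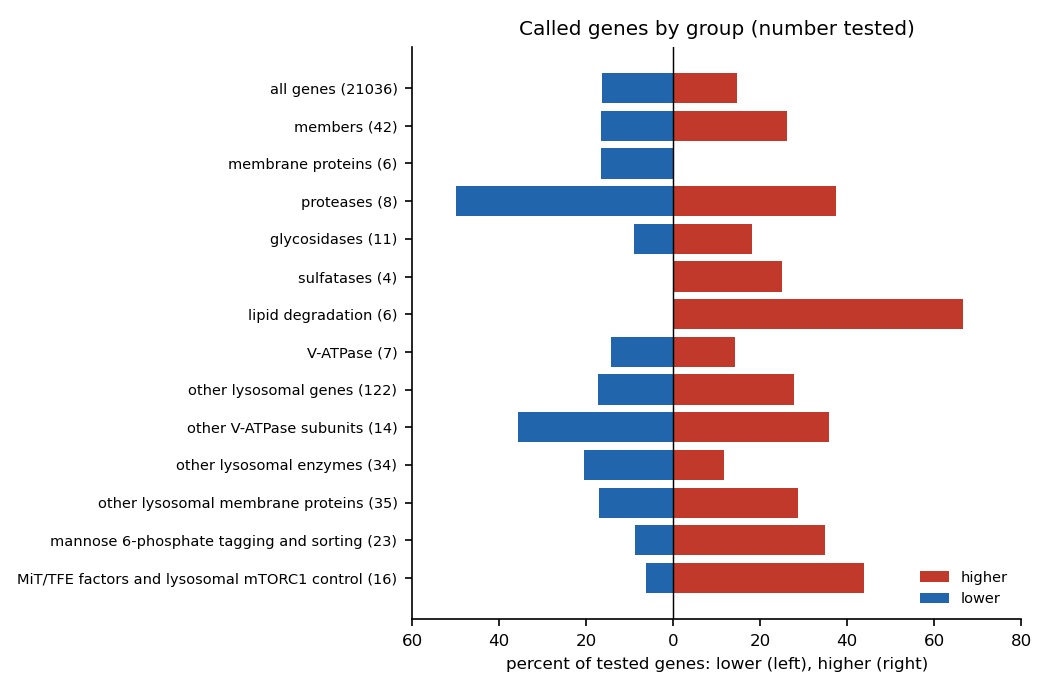
Percent of tested genes called higher (red, right) and lower (blue, left) at adjusted p under 0.05 in all genes, in the 42 lysosomal genes, in their 6 role groups and in the further lysosomal lists, with the number tested in brackets. All genes show 14.6% higher and 16.3% lower, and the small groups range from 0% to 66.7% higher.

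Several members share sequence with other genes, which limits their values. Exons of 18 of the 42 genes overlap another gene in the table, and no source read here states whether counting used strand. The largest overlap was that of CTSD, of whose exonic length 41.7% is shared with RP11-295K3.1 on the same strand, which had 28347 counts beside 31720 for CTSD and rose by a similar amount (0.24, adjusted p = 1.43e-05). Counts of that transcript and of CTSD cannot be told apart in the shared bases. IDS shares 16.5% with AF011889.5, which also rose (0.32, adjusted p = 0.00633), and CLN3 shares 25.2% with RP11-435I10.4 (0.26, adjusted p = 0.14). GUSB, CTSL, FUCA1, LAMP1 and IDS have annotated pseudogenes.

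A further sequence feature moved with lower values in these libraries. The 7-letter word CTCTACA in annotated 3′ UTRs (GENCODE v44) had been picked on these same 6 samples because genes that hold it tended to be lower, so it is not independent evidence. Of 1692 tested genes with the word 35.0% fell, and of 11551 without it 19.0%. Among the 42 genes it was found for LAMP2 and ATP6V1B2, which fell, and for SGSH and ARSB, which did not pass the test. CTSC, CTSB, CTSL, CTSH and FUCA1 fell without holding it. Its part in the values of LAMP2 and ATP6V1B2 was not tested.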

How the data were processed

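RNA-seq libraries were made from total RNA of 6 samples of 5637 cells with a stranded mRNA kit. Per the labels, the authors trimmed reads with fastp (version 0.23.0) and counted them per gene on GRCh38 with featureCounts (Subread 1.5.1), and deposited raw counts in 1 table. For the aligner, the strand setting of the counting and the annotation release nothing is given in the sources used here. Among counts of 1 to 20, 68.8% to 70.0% were even in each library, so both reads of a pair may have been counted, and halved counts were tried as an alternative.

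Counts were fitted with edgeR 4.0.16 (R 4.3.3) over all genes that passed filterByExpr (21036 of 36887), with TMM scaling, the quasi-likelihood test and Benjamini-Hochberg adjustment over all genes tested. Genes were called at adjusted p under 0.05. Fold changes are siYKT6 over siNC on the log2 scale with the SE of the fit. CPM values used TMM-scaled library sizes, and CPM per kb the exonic length in the table. Alternatives were other scalings and filters, DESeq2 1.42.0 (the test named in the study's methods), limma-voom (limma 3.58.1), a block for replicate number and the removal of each sample in turn. The test was run first on simulated data. It called 54% of 50 genes changed 1.2-fold and 96% of 50 genes changed 1.5-fold. A member that was not called may therefore still have changed by a small amount. In the simulation only 50 expressed genes were changed at each fold, and every gene had the same spread between replicates. In the data 30.8% of genes were called, so the simulated rates need not hold for the members. Total counts were 45205238 to 64982015 per sample, and the coefficient of variation between replicates was 0.0418.

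The members, the lists of further genes and their groups were chosen with earlier results of these data known. All 42 members are named. Values per sample are given for LAMP1, LAMP2, CTSD, TPP1 and ATP6V1A and, by smallest p within a role group, for 4 called members at most per direction. Values per sample of SGSH, MCOLN1 and CLN3, which were not called, were added after seeing that their groups did not overlap. From each further list up to 3 called genes per direction are named, and 1 gene that this would name is not reported here. Other genes named, the grouping of proteases by catalytic class, the background of expressed genes, the exon overlaps and the 3′ UTR word were added after values had been seen.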

Additional observations from a re-analysis of the deposited data

How the results depend on the processing

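The 14 alternatives were 2 other scalings, 2 other filters, DESeq2, limma-voom, the replicate block, halved counts and leaving out each of the 6 samples. No member changed direction while called. Of the 18 members called, 12 were called in all 14 alternatives: CTSD, CTSA, TPP1, NEU1, PPT1, NPC2, PSAP and ATP6V1H higher, and CTSC, CTSB, CTSL and ATP6V1B2 lower. LAMP2, CTSH, FUCA1, GUSB, IDS and ASAH1 lost the call in 1 to 7 alternatives, HEXA, CLN3 and SGSH gained one in 1 to 6, and 21 members were never called. The number of members called higher was 9 to 12 with 1 sample left out or under another processing. The number called lower was 4 to 7 with 1 sample left out, and the 4 was reached without siNC replicate 2, when LAMP2, CTSH and FUCA1 lost the call. It was 5 under upper quartile scaling and without a filter, where LAMP2 and CTSH lost it. IDUA had no value under the filter of at least 1 CPM in every sample. The median log2 fold change of the members was 0.03 to 0.06. Same-numbered samples did not deviate together over all tested genes (correlations 0.00647, -0.00469 and 0.00919). No pairing by replicate number was seen, but noise at low counts could hide one. With the replicate block 12 members were higher and 7 lower, HEXA being added. IDUA, SGSH, ARSA, NAGLU and ARSB had SEs of 0.121 to 0.201 and limit what can be seen for them.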

Other observations

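Single libraries stood apart for 2 lysosomal genes outside the 42. ATP6V1F, a subunit of the V1 sector, was at 89.2, 31.8 and 96.2 CPM in siNC and 97.6, 99.3 and 102.9 CPM in siYKT6, so that siNC sample 2 was far below the other 5 libraries (log2 fold change 0.46, SE 0.206, adjusted p = 0.0997). SCPEP1, a serine carboxypeptidase, was at 124.7, 129.8 and 120.6 CPM in siNC and at 119.1, 113.6 and 84.0 CPM in siYKT6, with siYKT6 sample 3 lowest (-0.24, SE 0.0769, adjusted p = 0.0197). Paralogs differed in direction: ATP6V0E1 fell while ATP6V0E2 rose (1.65 ± 0.133 to 2.36 ± 0.126 CPM, 0.51, adjusted p = 0.00963) and RRAGC fell while RRAGD rose. These pairs were noticed in the values and were not tested against each other. Mitochondrially encoded genes took 7.91% to 8.24% of counts in siNC and 8.44% to 8.73% in siYKT6, all siYKT6 libraries being higher. The 42 genes took 0.157% to 0.161% of counts in siNC and 0.161% to 0.162% in siYKT6.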
